A study of Homo sapiens with 12 samples.

Results

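Regions of the U2OS genome that were open with the forkhead factor FOXA2 were set against those open with the HMG-box factor SOX2. U2OS is a human osteosarcoma line. The assay was ATAC-seq, which reads open chromatin from where the transposase Tn5 can insert adapters. The peak lists of 2 libraries with full-length FOXA2 (genotype Tet-on FOXA2) and the 1 list of full-length SOX2 (genotype Tet-on SOX2) were merged with 3 lists labelled wild type wherever entries overlapped by at least 1 bp, on chromosomes 1 to 22 and X. Only merged regions with no entry in a list labelled wild type were used. A region with an entry in both FOXA2 lists and none in the SOX2 list is called FOXA2-side, one with an entry in the SOX2 list and in neither FOXA2 list SOX2-side, and one with an entry in all of these lists shared. Of 291858 merged regions, 14665 (5.02%) were FOXA2-side, 62114 (21.3%) were SOX2-side and 1965 (0.673%) were shared.

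The construct cells carried a doxycycline-inducible transgene and were labelled as induced at 500 ng/ml for 4 days. The wild-type samples have no genotype or treatment entered in their labels, while the shared protocol text names doxycycline for all samples. Whether they were induced is not known. The samples fall into a FOXA2 set (wild type, full-length FOXA2, FOXA2 without its CTD), with a list for each of 2 biological replicates, and a SOX2 set (a wild type labelled with the SOX2 cell line, full-length SOX2, a fusion of SOX2 with the FOXA2 CTD), with a single list for each group. The labels leave unsaid if that wild type was parental U2OS or uninduced SOX2-line cells, and nothing in the labels says how many clones a line represents. The factor, the set and the way its lists were made cannot be told apart in any comparison here.

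FOXA2 binds DNA through a winged-helix domain that resembles linker histone, and FOXA factors are known for binding sites within closed chromatin ahead of other factors during endoderm and liver specification. SOX2 bends DNA through its HMG box, acts in pluripotent cells with OCT4 and in neural progenitors, and has also been described as able to bind nucleosomal DNA. Neither factor defines the identity of osteosarcoma cells.

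The lists were of unequal length and origin. On the chromosomes used, the FOXA2 lists held 161136 entries (replicate 1) and 57946 (replicate 2), the SOX2 list 147763, and the lists labelled wild type 19862 and 25088 in the FOXA2 set and 110813 in the SOX2 set. The lowest -log10 p was 2.01 in FOXA2 replicate 1, 5.22 in FOXA2 replicate 2 and 1.78 in the SOX2 list, so the lists reach down to different strengths. Read depth is not known for any library. As a check of labels, entries over the 2 transgenes' own genes were read. Both lists labelled wild type in the FOXA2 set had an entry within the FOXA2 gene, at a -log10 p of 9.08 and 44.2, against 17.4 and 183.4 with full-length FOXA2. That position, chr20:22581848-22582527 in the list labelled wild type replicate 1, had no entry in the SOX2-set wild type. In the SOX2 gene the SOX2 list had an entry at chr3:181712248-181713357 with a -log10 p of 22.7, and the SOX2-set wild type had one within it at 10.8. Entries over the same stretch were also present in the FOXA2 set, at 11.3 in wild type replicate 1, 13.8 in the first CTD deletion library and 4.34 in FOXA2 replicate 1. The label wild type is therefore used here for what the samples are called, and what these entries mean for the induction state was not tested.

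Few regions of any class lay on a start site, so the promoters that did hold one are the exceptions. The strongest of each class, a FOXA2-side promoter with a forkhead match and a SOX2-side promoter with both motifs are printed to show what sequence these entries covered. Each is the stretch of 250 bases before the start site, 5' to 3' on the gene's strand, from RefSeq (GRCh38.p14). Capitals mark matches on either strand to the forkhead letters TGTTTAC or TATTTAC, or to the SOX letters CCATTGT or CCTTTGT. CBFA2T2, a transcriptional corepressor, is at chr20:33562092-33562341 (plus strand), C1QTNF9, a secreted adipokine, at chr13:24306916-24307165 (plus strand), LGSN, a lens protein, at chr6:63319984-63320233 (minus strand), ANKUB1 at chr3:149792555-149792804 (minus strand) and C4orf54 at chr4:99657829-99658078 (minus strand).
CBFA2T2, FOXA2-side: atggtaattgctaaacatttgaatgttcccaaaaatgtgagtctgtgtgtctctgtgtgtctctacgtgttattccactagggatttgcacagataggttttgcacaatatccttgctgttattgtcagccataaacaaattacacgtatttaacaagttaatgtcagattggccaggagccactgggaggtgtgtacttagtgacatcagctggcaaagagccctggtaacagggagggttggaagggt
C1QTNF9, FOXA2-side: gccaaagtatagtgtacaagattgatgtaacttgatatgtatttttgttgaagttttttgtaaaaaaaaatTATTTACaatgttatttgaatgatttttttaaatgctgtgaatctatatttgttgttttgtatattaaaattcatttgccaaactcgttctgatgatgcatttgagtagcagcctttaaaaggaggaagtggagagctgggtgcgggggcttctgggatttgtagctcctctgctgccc
LGSN, SOX2-side: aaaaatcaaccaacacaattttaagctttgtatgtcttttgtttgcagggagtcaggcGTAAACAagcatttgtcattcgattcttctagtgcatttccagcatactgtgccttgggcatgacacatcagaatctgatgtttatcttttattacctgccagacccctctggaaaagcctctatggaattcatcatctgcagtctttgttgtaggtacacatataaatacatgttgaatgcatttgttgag
ANKUB1, SOX2-side: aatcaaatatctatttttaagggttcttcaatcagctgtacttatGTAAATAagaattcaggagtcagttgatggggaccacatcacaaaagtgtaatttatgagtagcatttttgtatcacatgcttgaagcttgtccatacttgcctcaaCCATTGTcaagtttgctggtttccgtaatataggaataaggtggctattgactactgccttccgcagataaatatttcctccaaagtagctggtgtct
C4orf54, shared: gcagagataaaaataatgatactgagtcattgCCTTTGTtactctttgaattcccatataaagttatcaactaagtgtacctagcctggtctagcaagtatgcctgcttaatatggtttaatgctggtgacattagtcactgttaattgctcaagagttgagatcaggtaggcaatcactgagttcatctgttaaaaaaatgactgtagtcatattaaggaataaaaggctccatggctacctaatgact

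Some of the printed promoters were picked by their letters, so they cannot show whether the letters sort promoters by class. The CBFA2T2 promoter, with an entry in both FOXA2 lists (-log10 p of 6.02 and 13.5), held no exact match to the forkhead or SOX letters. The LGSN promoter, with an entry in the SOX2 list at a -log10 p of 28.9, held a forkhead match. ANKUB1, with a -log10 p of 18.3 in the SOX2 list, held a match to each. The shared entry over the C4orf54 promoter had a -log10 p of 5.55 and 12.4 with FOXA2 and 11.7 with SOX2, and covered a SOX match. Over windows of 300 bases (250 before to 50 after the start site, both strands), 10 promoters overlapped a FOXA2-side region and 193 a SOX2-side region. A forkhead match was present in 1 of the 10 and in 7.25% of the 193, against 4.55% of all 15812 promoters. The forkhead letters read in reverse order were present in 0 of the 10, in 7.25% of the 193 and in 4.98% of all. In the SOX2-side promoters the forkhead letters were thus no more frequent than their reversed control. A SOX match was present in 11.4% of the 193, against 6.62% of all promoters, and the same SOX letters read in reverse order were present in 10.4% and 6.79%. The SOX letters and their reversed control were thus both more frequent in the SOX2-side promoters. The median GC content was 55% in these promoters, 35.8% in the FOXA2-side promoters and 62.7% in all.

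The FOXA2 and SOX2 lists held mostly different regions. The shared regions were 11.8% (95% Wilson interval 11.3 to 12.3) of the 16630 regions without a wild-type entry that both FOXA2 libraries had, and 2.78% (2.66 to 2.91) of the 70590 such regions in the SOX2 list. Counting regions in at least 1 FOXA2 library, 12% (11.8 to 12.2) of the SOX2 regions were also found with FOXA2. The first share moved with the wild types used: with only the wild types of the FOXA2 set excluded, 9647 regions were shared beside 15151 on the FOXA2 side, which is 38.9% of the regions in both FOXA2 libraries. At equal numbers of entries it was 4.02%. Intervals here and below cover counting error only, because regions are not replicate cultures. SOX2-side regions outnumbered FOXA2-side ones 4.24 to 1. That ratio followed the lists: with the strongest 57946 entries of each list it was 1.39, and with FOXA2 replicate 1 alone in place of both libraries it was 0.632.

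Both factors' regions lay mostly far from protein-coding start sites, although many lay inside genes. The median distance from a region's midpoint to the nearest protein-coding start site was 122498 bp on the FOXA2 side, 128601 bp on the SOX2 side and 113278 bp for shared regions. To the nearer end of any protein-coding gene the medians were 72428 bp on the FOXA2 side and 75819 bp on the SOX2 side. Regions with an entry in every list labelled wild type, the standing open regions of these cells, had a median of 18675 bp to a start site and 6111 bp to a gene end. Over 50 kb from a start site lay 70.2% (69.4 to 71.0) of FOXA2-side regions, 71.4% (71.1 to 71.8) of SOX2-side regions and 67.3% (65.1 to 69.4) of shared regions, against 37.3% (36.3 to 38.2) of the standing open regions. All merged regions together had 64.8%. Beyond 500 kb the shares were 19.7%, 19.4%, 18% and 8.90% in the same order.

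The gap of -1.25 percentage points over 50 kb between the sides (FOXA2 minus SOX2) is of the size by which single FOXA2 libraries move it. With FOXA2 replicate 1 alone the shares were 69.4% and 71.3%, with replicate 2 alone 68.2% and 71.3%, and the SD of the difference between these 2 readings was 0.856 points. The gap turned to 1.27 points when only the wild types of the FOXA2 set were used and to 0.0526 points when start sites of all annotated genes were used. It was -4.29 points at equal numbers of entries per list. No order of the sides by distance to genes therefore held across these settings.

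**Figure D1:**
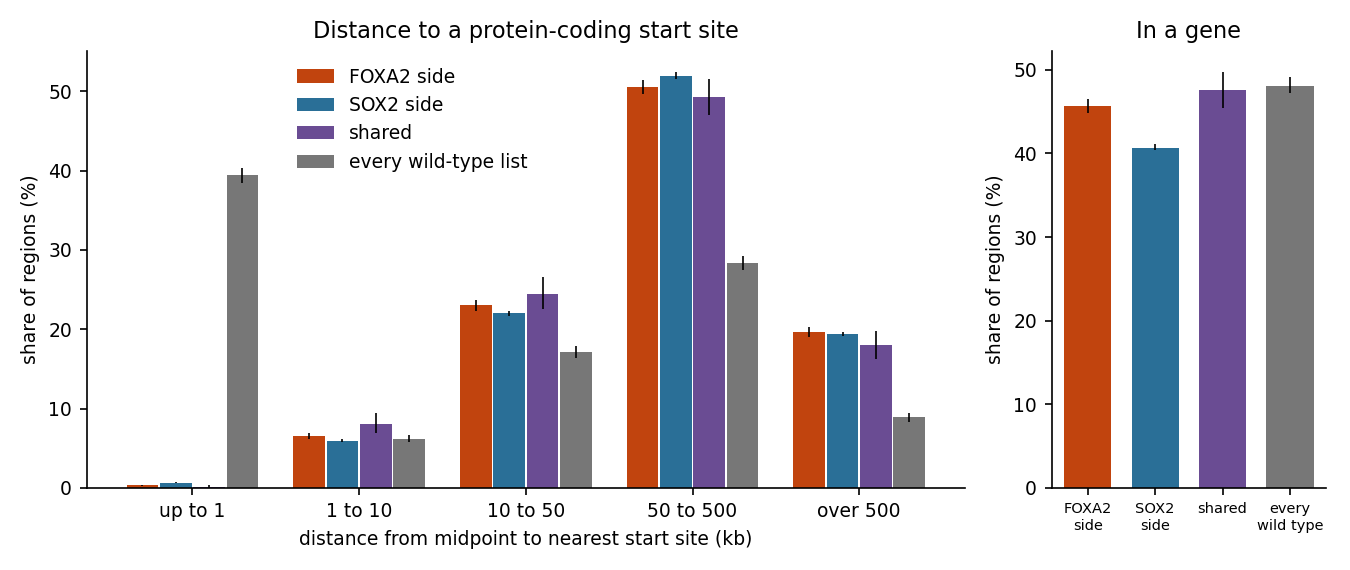
Left, share of regions (%) by distance from the midpoint to the nearest protein-coding start site (kb), for FOXA2-side, SOX2-side and shared regions and for regions with an entry in every list labelled wild type. Right, share of regions (%) with the midpoint in a protein-coding gene. Bars are shares and lines 95% Wilson intervals. The 3 classes without a wild-type entry nearly lack regions within 1 kb, where 39.4% of the standing open regions lie.

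Few regions of either side lay at start sites. Within 1 kb of one lay 0.298% (0.22 to 0.404) of FOXA2-side regions, 0.611% (0.551 to 0.678) of SOX2-side regions and 0.110% (0.0301 to 0.400) of shared regions, against 39.4% (38.5 to 40.4) of the standing open regions. The classes exclude any region with a wild-type entry, and promoters are where such entries concentrate, so this difference from the standing open regions follows in part from the rule. The difference between the sides was -0.313 points with the rule on both FOXA2 libraries, -0.130 with replicate 1 alone and -0.0725 with replicate 2 alone. It was -0.0372 points at equal numbers of entries and was 0.0260 points with windows of 250 bp on each side of the summits.

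Gene bodies separated the sides more steadily. The midpoint lay in a protein-coding gene for 45.7% (44.9 to 46.5) of FOXA2-side regions, 40.7% (40.4 to 41.1) of SOX2-side regions and 47.6% (45.4 to 49.8) of shared regions, against 42.8% of all merged regions and 48.1% of the standing open ones. With single FOXA2 libraries the FOXA2 side had 43.3% and 45.7%, both above the SOX2 side at 40.8% and 40.7%. The difference of 4.96 points ranged from 2.51 to 5.32 over 17 other settings and kept its sign in each. The genes that held the regions were long: the median length was 208.1 kb on the FOXA2 side, 221.8 kb on the SOX2 side and 66.7 kb for the standing open regions. All regions without a wild-type entry lay in a gene in 42.4%, with a median gene length of 201.9 kb. Of regions within 50 kb of a start site, 43.1% of FOXA2-side and 46.0% of SOX2-side regions lay upstream of it.

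Gene neighbourhoods were sparse on both sides. No protein-coding gene lay within 500 kb of 16.2% of FOXA2-side, 16% of SOX2-side and 15.3% of shared regions, against 7.23% of the standing open regions. Of all regions without a wild-type entry 15.6% had no protein-coding gene there, so the sparseness was not particular to either side. The median number of such genes within 500 kb was 3.00 on the FOXA2 side, 4.00 on the SOX2 side and 7 for the standing open regions. FOXA2-side regions were thinly scattered, with a median of 54177 bp to the next one, and SOX2-side regions lay 14450 bp from the next. From a FOXA2-side region the nearest SOX2-side region was 15029 bp away, and from a shared region 14620 bp, both close to the spacing of SOX2-side regions among themselves. The nearest standing open region was 117858 bp from FOXA2-side regions and 130949 bp from SOX2-side regions. Across 2941 bins of 1 Mb the numbers of FOXA2-side and SOX2-side regions had a Pearson r of 0.394 and a Spearman rho of 0.499. This is a description, since bins share the mappable sequence and the gene density of a stretch.

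The 3 lists that played no part in the rule followed the factor and the set together. FOXA2 without its CTD, the C-terminal domain that the study removed, had an entry in 51.9% (replicate 1) and 70.7% (replicate 2) of FOXA2-side regions, a mean of 61.3 ± 13.3% (SD, n = 2), and in 3.10% and 7.30% of SOX2-side regions, a mean of 5.2 ± 2.96% (SD, n = 2). All regions without a wild-type entry had 9.87% and 16.8%. The fusion of SOX2 with the FOXA2 CTD had an entry in 6.14% (5.76 to 6.54) of FOXA2-side regions and in 74.0% (73.7 to 74.4) of SOX2-side regions, against 32.6% of all regions without a wild-type entry. In both CTD deletion libraries the FOXA2 side exceeded the SOX2 side by more than the spread between the libraries. Among the 3 classes, shared regions were the most often found in each list: 64.5% and 80.3% without the CTD and 87.4% (85.9 to 88.8) with the fusion. By the rule they already had entries from both sets. They were also the widest, with a median of 719 bp against 574 bp (FOXA2 side) and 451 bp (SOX2 side). An overlap of 1 bp counts as an entry, and the part of width was not tested.

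Entries of both sets were also read in regions of the wild types. Regions with an entry in the SOX2-set wild type and in neither FOXA2-set wild type, 83972 in all, had an entry in 59.6% with SOX2 and 63.8% with the fusion, but in 28.9% and 12.7% with full-length FOXA2 and 17.9% and 36.1% without the CTD. The SOX2-set lists thus had an entry here more often than the FOXA2-set lists. The class was defined by an entry in the SOX2-set wild type and none in either FOXA2-set wild type, which favours that order. The SOX2 and fusion lists also cover more sequence, 88.9 and 108.3 Mb, against 26.3 to 58.0 Mb for FOXA2-set constructs. These values therefore cannot show how far lists of a set coincide. The part of the set in the separation by factor was not tested. Limiting the fusion list to a global IDR (irreproducible discovery rate) of at most 0.05 lowered its share to 38.8% of SOX2-side and 1.17% of FOXA2-side regions, with the same order. With FOXA2 replicate 1 alone the FOXA2 side had 15.7% called without the CTD, against 5.58% of the SOX2 side.

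**Figure D2:**
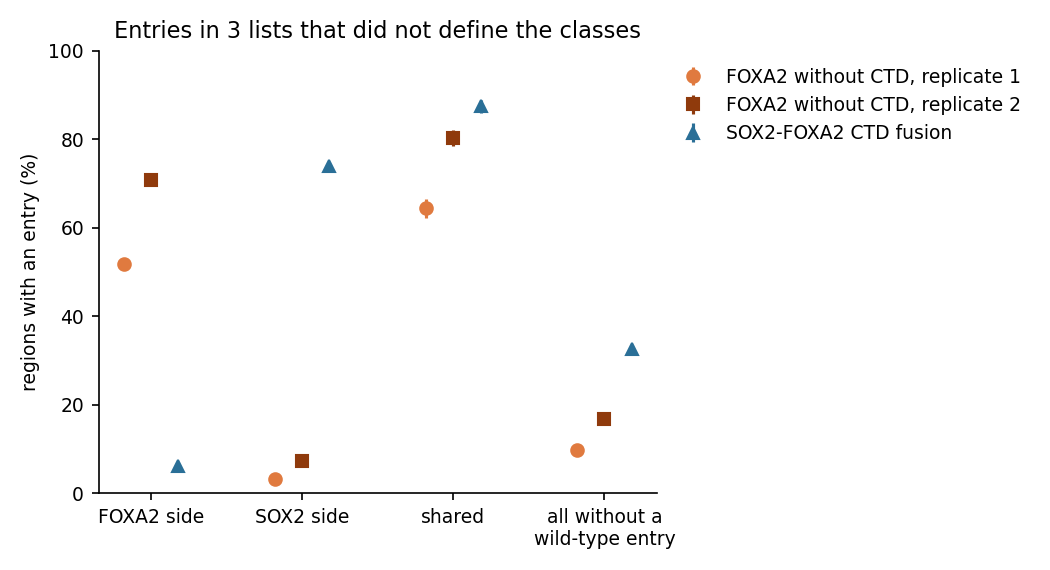
Share of regions (%) with an entry in each of the 3 lists that did not define the classes, for FOXA2-side, SOX2-side and shared regions and all regions without a wild-type entry. Points are lists and lines 95% Wilson intervals, mostly smaller than the points. The CTD deletion lists are high over FOXA2-side regions (51.9% and 70.7%) and the fusion list over SOX2-side regions (74.0%), while shared regions are high in all 3.

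Strength within a list went with recovery in other lists of the same set. SOX2-side regions were mostly weak: their median -log10 p was 4.66, the 36.7th percentile of the SOX2 list, and 29.7% had a global IDR of at most 0.05. Shared regions were stronger in the same list, with a median of 5.53, the 47.5th percentile, and 40.9%. The SOX2 list was divided into 5 classes of equal percentile width. From its weakest to its strongest class, the share of SOX2-side regions with a fusion entry went from 50.1% to 99.9%. The share over 50 kb from a start site went from 69.8% (69.1 to 70.4) to 76.5% (75.3 to 77.6). These intervals cover counting error within a single list. On the FOXA2 side, from the weakest to the strongest class of FOXA2 replicate 2, the CTD deletion entries went from 32.0% to 81.4% in replicate 1 and from 53.5% to 92.3% in replicate 2. Distance showed no such trend by FOXA2 replicate 2, with 70.4% (68.5 to 72.2) over 50 kb in the weakest class and 70.9% (69.0 to 72.8) in the strongest. By FOXA2 replicate 1 these shares were 64.2% (58.1 to 69.8) and 72.0% (71.0 to 73.0).

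**Figure D3:**
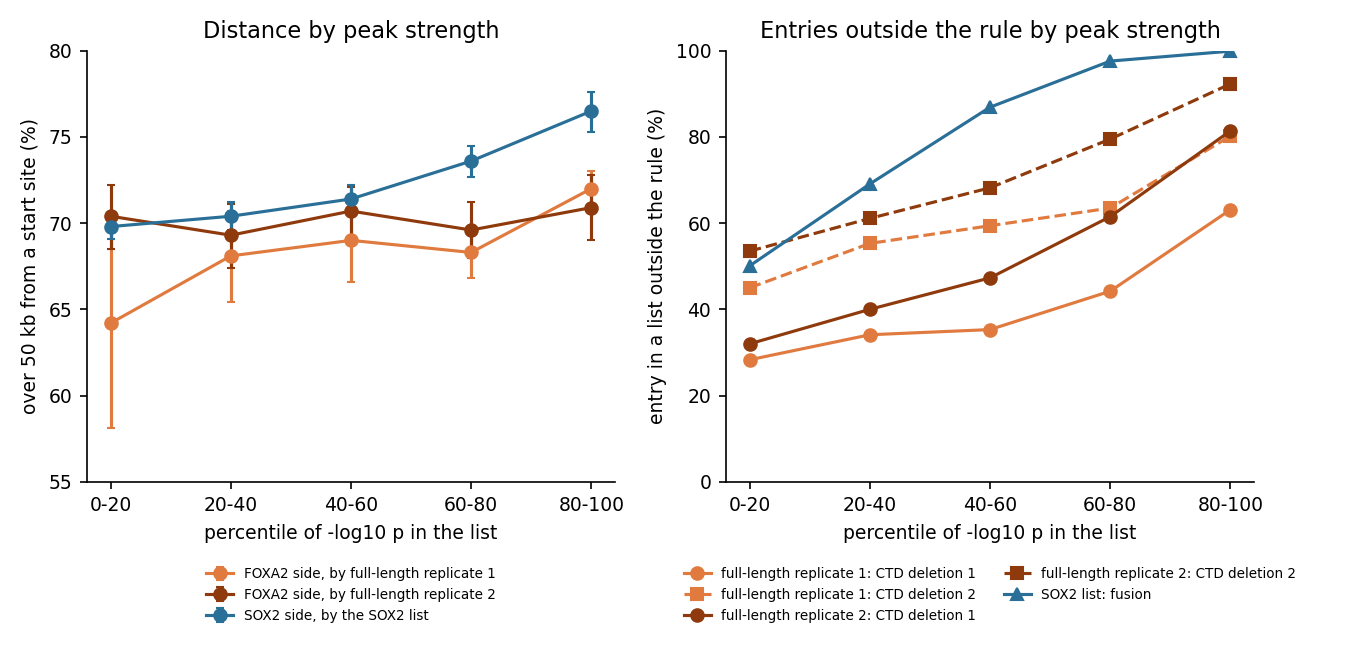
Left, share of regions over 50 kb from a protein-coding start site (%) by percentile of -log10 p in the list named, with 95% Wilson intervals, on an axis from 55 to 80%. Right, share of the same regions (%) with an entry in lists of the same set outside the rule. These are the CTD deletion lists for the FOXA2 side and the fusion list for the SOX2 side. In the single SOX2 list, more of the strongest SOX2-side regions (76.5%) than of the weakest (69.8%) lie over 50 kb from a start site. On both sides stronger regions have more entries in the lists drawn.

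The 5 strongest FOXA2-side regions, ranked by the lower of their percentiles in the FOXA2 lists, lay mostly outside protein-coding genes. Genes named here and below are the nearest protein-coding ones. The first region, at chr18:39192263-39193180, lay 1418034 bp from LOC105372073. Its enrichment over background, a ratio the authors' caller gave, was 17.3 and 47.0 in replicates 1 and 2, with -log10 p of 59.5 and 198.2. The others were chr8:20864658-20865327, 561030 bp from LZTS1; chr6:166287752-166289111, 16868 bp from PRR18; chr12:81927130-81928887, 168659 bp from PPFIA2, a scaffold of synaptic active zones; and chr1:49947799-49948672, within AGBL4, a tubulin deglutamylase gene. All 5 had an entry with the second CTD deletion library, 3 also with the first, and none with the fusion.

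The 5 strongest SOX2-side regions were led by chr8:114803611-114804603, 604389 bp from TRPS1, a GATA-type repressor of skeletal development, with a -log10 p of 59.3. Next came chr5:108100896-108101697 in FBXL17, an F-box gene (53.6), chr11:93512048-93512807 in SMCO4 (50.5), chr7:8379218-8379854, 54073 bp from NXPH1, a neurexin ligand (48.7), and chr9:26516685-26517591, 323547 bp from CAAP1 (47.8). Each had a global IDR of 1e-05 and an entry with the fusion, and none had one without the CTD in either library.

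Among the shared regions the first was chr14:73293427-73294391 in NUMB, which encodes an inhibitor of Notch signalling, with a -log10 p of 8.94 and 42.6 with FOXA2 and 26.8 with SOX2. The next 4 were chr5:118213877-118215093, 621589 bp from DTWD2, chr10:83202103-83203059, 215402 bp from NRG3, a neuregulin, chr9:31355166-31356895, 1028612 bp from ACO1, and chr2:187359925-187360886 in CALCRL, a receptor for calcitonin gene-related peptide. All 5 had entries in both CTD deletion libraries and with the fusion. Over all shared regions, the summits of FOXA2 replicate 2 and SOX2 lay a median of 100 bp apart and within 100 bp in 50.2%. In the standing open regions the median was 71 bp, with 65.3% within 100 bp. The summits of FOXA2 replicate 1 lay farther from those of SOX2, with medians of 177 bp in shared and 166 bp in standing open regions, and 24.3% and 23.3% within 100 bp.

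A larger share of SOX2-side than of FOXA2-side regions lay around the longest gene-free stretch of each chromosome. This stretch lies at the centromere or, on acrocentric chromosomes, begins at the end of the short arm. It ends at position 5010454 on chromosome 21 and at 10685647 on chromosome 22. Within 2 Mb of such a stretch lay 7.22% (7.02 to 7.43) of SOX2-side regions, 4487 in number, and 3.53% (3.24 to 3.84) of FOXA2-side regions, 517 in number. Inside the stretches the shares were 3.27% and 0.525%. Shared regions had 5.50% (4.57 to 6.59) within 2 Mb and the standing open regions 7.18%, so that of these classes the FOXA2 side was the low one. All merged regions had 6.25% and all regions without a wild-type entry 6.19%. The SOX2 side lay nearer to these shares than the FOXA2 side did. Regions of the SOX2-set wild type that the FOXA2-set wild types lacked had 3.42%. The whole lists ran differently: 5.56% of entries in FOXA2 replicate 1, 8.93% in replicate 2, 6.36% in the SOX2 list and 17.5% in the list labelled wild type replicate 2 of the FOXA2 set lay there. Without that wild type the shares of the sides became 5.32% and 7.32%, a difference of 2.00 points in place of 3.70. With FOXA2 replicate 2 as the only FOXA2 library it was 1.32 points.

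The SOX2-side regions near these stretches were weaker and less often found with the fusion. Their median -log10 p was 4.12 against 4.69 elsewhere, 21.7% against 30.3% had a global IDR of at most 0.05, and 50.0% against 75.9% had an entry with the fusion. In the CTD deletion lists it was 7.27% against 2.78% (replicate 1) and 7.53% against 7.28% (replicate 2), higher near the stretches in replicate 1. Of 2941 bins of 1 Mb, 25 held 50 or more SOX2-side regions, and 19 of these lay near a stretch. Among all 2941 bins, 2790 lay away from the stretches. Counted as away were also bins past the stretches of acrocentric chromosomes, from 14000001 on chromosome 22 and from 12000001 on chromosome 21. They held 59 and 57 SOX2-side regions. The 25 bins, picked by their SOX2-side count, held 1738 SOX2-side regions (2.80% of that side). They held 66 FOXA2-side regions (0.450%). The fullest, 26000001 to 27000000 on chromosome 19, held 117 SOX2-side regions and no entry of either FOXA2 list. In that bin 70 other regions had an entry in the SOX2-set wild type. The bin from 48000001 on chromosome 5 was alike, with 108 SOX2-side regions, 54 with the SOX2-set wild type and 0 with FOXA2. In both of these bins entries thus came with the SOX2 set, also in its wild type. Other full bins differed. The bin from 27000001 to 28000000 on chromosome 20 held 93 SOX2-side regions. There 116 regions had an entry in FOXA2 replicate 1, 35 in replicate 2 and 12 in the SOX2-set wild type. Repeats near centromeres are hard to map, and whether the lists were made with the same mapping filters is not given in the sources used here, so its part in these values was not tested.

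**Figure D4:**
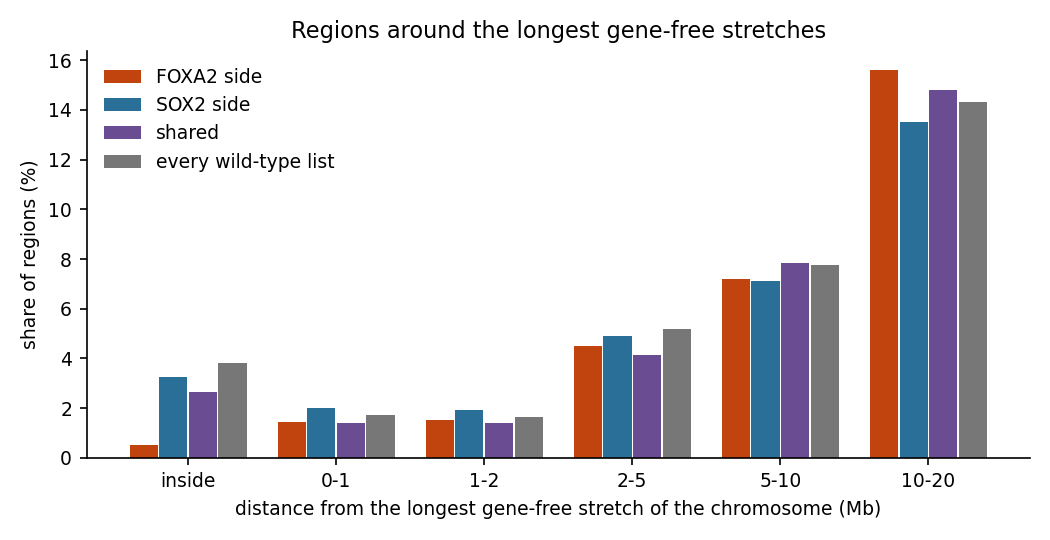
Share of regions (%) by distance (Mb) from the longest gene-free stretch of the chromosome, for the 3 classes and the regions with an entry in every list labelled wild type. Distances over 20 Mb are not drawn. Inside the stretches SOX2-side regions have a share of 3.27% and FOXA2-side regions 0.525%.

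The balance of the sides varied by chromosome. The SOX2-side to FOXA2-side ratio was 4.24 over all chromosomes and 4.07 away from the stretches. Chromosome 19 had 11.1, with 823 against 74 regions, and 7.34 away from the stretches. Chromosome X had 6.51 and chromosome 6 the lowest ratio, 3.55.

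Single genes with more FOXA2-side than SOX2-side regions were few and their counts small. Each region was assigned to the protein-coding gene that holds it or lies nearest. Of 19821 genes, 894 (4.51%) had more FOXA2-side regions and 10047 (50.7%) fewer, beside the unequal totals of the sides. The largest excess was 4 regions, reached by 7 genes, and these small numbers moved with the settings: with FOXA2 replicate 1 as the only FOXA2 library they were 23 for BAZ2B, 22 for RGS17 and 16 for BIRC6, and at 50% cover of a region they were 0 for BAZ2B and N4BP2. DLGAP5, a mitotic spindle protein, had 4 FOXA2-side and 0 SOX2-side regions, as did NCOR1, the nuclear receptor corepressor. RGS17, a regulator of G-protein signalling, had 12 and 8, and BIRC6, an inhibitor of apoptosis, had 8 and 4. In the gene or within 50 kb RGS17 had 4 and 5, and BIRC6 9 and 4. TOGARAM1, a microtubule protein of cilia, and BAZ2B, a bromodomain protein, each had 5 and 1, and N4BP2 had 6 and 2. The excess at RGS17 became -1 when an entry had to cover 50% of its region. Among the genes with an excess of 3 were TSLP, an epithelial cytokine (6 and 3, with 4 of each within 50 kb), SHOX, a homeobox gene of limb growth (3 and 0), and CLPX, a mitochondrial unfoldase (3 and 0).

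The 12 genes with the largest SOX2-side excess lay at most 4.84 Mb from the gene-free stretches. EMB, which encodes embigin, had 196 SOX2-side and 4 FOXA2-side regions, but only 6 of the former lay in the gene or within 50 kb. ZNF254, a KRAB zinc finger gene, had 191 and 0, with 1 within 50 kb. OR11H1, an olfactory receptor gene, had 202 and 12, ZNF337 190 and 10, and ALG10B, a glucosyltransferase of N-glycosylation, 144 and 5. UQCRFS1, the Rieske protein of respiratory complex III, had 133 and 7. EPHA3, an ephrin receptor, had 163 and 21, with 17 SOX2-side regions within 50 kb. The difference (FOXA2 minus SOX2) at EPHA3 went from -142 to -12 with FOXA2 replicate 1 alone, and that at ZNF337 from -180 to 6 with IDR-limited SOX2 lists and 3 at equal numbers of entries. With equal numbers EMB had -26 and ZNF254 -13. Assignment to these genes says where the nearest gene stands rather than that a region lies close to it.

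Farther from the stretches, other genes leaned to SOX2. These, and the genes of the next paragraph, were chosen after their values were seen. NCKAP5 had 49 SOX2-side and 3 FOXA2-side regions, 41 of the 49 inside the gene. MCTP2 had 64 and 8, and CYRIA, a RAC1 binding protein, 30 and 0. API5, an inhibitor of apoptosis, had 34 and 0, of which 3 lay within 50 kb.

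Relative to the totals of each side, some long genes of neural adhesion leaned to FOXA2 and others to SOX2. Of the 24 listed neuronal adhesion and synapse genes, 15 had more FOXA2-side regions per 1000 and 9 more SOX2-side regions. This was the only one of the 13 lists with more genes on the FOXA2 side. Hepatic transcription factors had 7 and 7, and each other list had more on the SOX2 side, such as the FOX family with 6 and 13. The same count over all genes is not given here. GRM7, a glutamate receptor, had 10 FOXA2-side and 68 SOX2-side regions, and CNTNAP2 9 and 56. NCAM2, a neural cell adhesion molecule, had 44 FOXA2-side and 67 SOX2-side regions, which is 3.00 and 1.08 per 1000 regions of the side. The cadherin genes CDH9 (35 and 47), CDH18 (37 and 69) and CDH12 (29 and 48) had 2.39, 2.52 and 1.98 per 1000 on the FOXA2 side, against 0.757, 1.11 and 0.773 on the SOX2 side. CSMD3 had the most FOXA2-side regions of any gene, 45, beside 99 on the SOX2 side. The 6 genes with most shared regions were LINGO2 and EYS, with 9 each, ZNF337, with 7, and ARAP2, FAM135B and MACROD2, with 6 each.

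**Figure D5:**
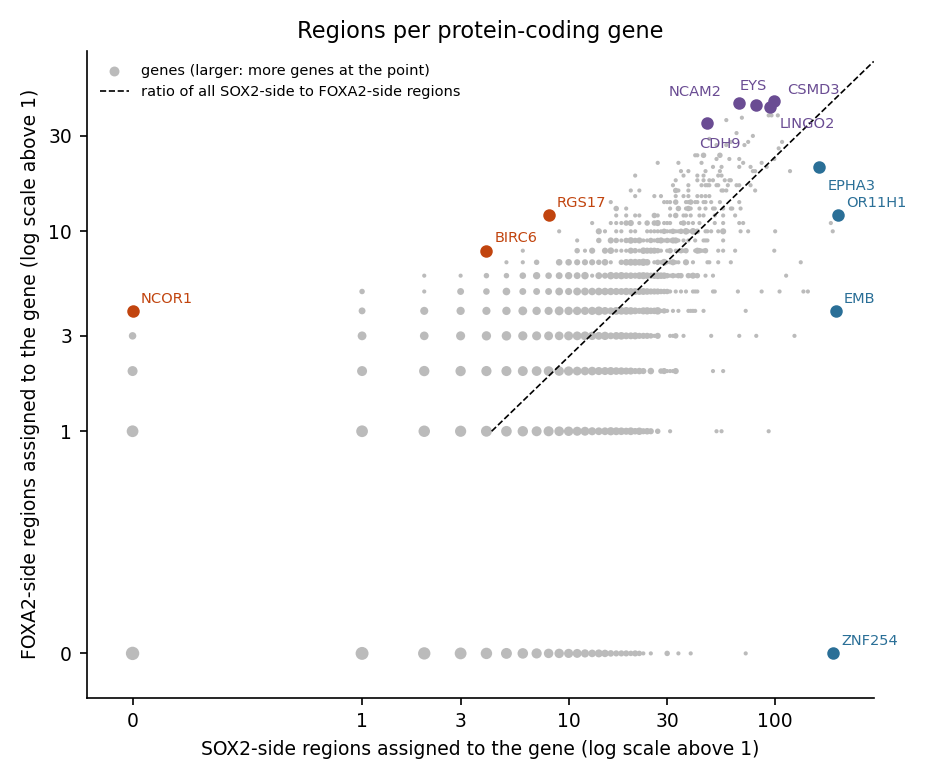
FOXA2-side against SOX2-side regions assigned to each protein-coding gene, on axes that are logarithmic above 1. Grey points are genes, larger where more genes coincide, and the dashed line is the ratio of all regions, 4.24. Named genes are those with a FOXA2 excess (orange), with the largest SOX2 excess (blue) and with many regions of both (purple). RGS17 stands at 12 and 8, EMB at 4 and 196 and NCAM2 at 44 and 67 FOXA2-side and SOX2-side regions.

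Lists of genes tied to either factor's known tissues were read against all genes. A FOXA2-side region lay in the gene or within 50 kb for 39.4% of the 19821 protein-coding genes, a SOX2-side region for 82.3% and a shared region for 8.70%, and 5.98% of genes had more FOXA2-side than SOX2-side regions there. These shares grew with gene length, over 4 classes of length of equal size, from 24.8% and 72.4% among the shortest genes to 65.1% and 96.6% among the longest. SOX2-side regions per FOXA2-side region near genes were 4.10 over all genes, and the median per gene was 0 FOXA2-side and 2.00 SOX2-side regions.

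Hepatic transcription factor genes, the liver regulators that FOXA2 is known to work with, had a FOXA2-side region near 10 of 18 (55.6%) and a SOX2-side region near 17 of 18 (94.4%). Their median was 1.00 and 2.00 and their ratio 2.95. NR1H4, the bile acid receptor FXR, had 4 FOXA2-side and 3 SOX2-side regions within 50 kb, and was the single gene of the list with more FOXA2-side regions. HNF4G had 3 and 5, NR5A2 3 and 5, ONECUT1 2 and 7, and PROX1 0 and 10. Hepatic secreted proteins and enzymes had a FOXA2-side region near 9 of 26 (34.6%) and a SOX2-side region near 23 of 26 (88.5%). CPS1, the first enzyme of the urea cycle, had 4 and 3, whereas ALB, the albumin gene, had 0 and 6, and APOB 0 and 2. Endoderm and foregut regulators had them near 8 of 25 (32.0%) and 19 of 25 (76.0%), with SOX9 at 2 and 1, GATA4 at 0 and 4, and GATA6 at 0 and 5. Of the liver and endoderm lists, the transcription factor list alone had a FOXA2-side share above that of all genes.

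Lists around SOX2 were near the background as well. Pluripotency genes had a FOXA2-side region near 8 of 21 (38.1%) and a SOX2-side region near 18 of 21 (85.7%). Among them SOX2 itself had 1 and 2 within 50 kb, ESRRB, an orphan nuclear receptor, 0 and 5, and KLF4 1 and 3. Neural progenitor genes had them near 10 of 27 (37.0%) and 23 of 27 (85.2%), with POU3F3, a neural POU factor, at 1 and 5, FGFR2 at 0 and 5 and SOX3 at 0 and 5. Within the SOX family, 8 of 19 (42.1%) and 18 of 19 (94.7%) had them. The long SOX5 and SOX6 genes had 12 and 7 FOXA2-side and 32 and 13 SOX2-side regions. Within the FOX family the numbers were 7 of 25 (28.0%) and 19 of 25 (76.0%), with FOXP1 at 7 and 13 and FOXP2 at 2 and 16.

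Neuronal adhesion and synapse genes carried most regions of any list, with a FOXA2-side region near 22 of 24 (91.7%), a SOX2-side region near 24 of 24 and a shared region near 14 of 24 (58.3%). Their median length was 1109 kb against 24.5 kb for all genes. The median gene held 8 FOXA2-side and 34.5 SOX2-side regions. DLG2, a postsynaptic scaffold, had 21 and 92, and PTPRD, a receptor phosphatase, 20 and 40.

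Osteoblast genes, which mark the tissue U2OS came from, and epithelial genes had the lowest shares with a FOXA2-side region. Osteoblast genes had one near 4 of 20, with a SOX2-side region near 17 of 20 (85.0%) and a ratio of 11.2 SOX2-side to 1 FOXA2-side region. COL1A2, a collagen gene, had 0 and 5, and RUNX2, the master regulator of bone, 2 and 3. Epithelial genes also had a FOXA2-side region near 4 of 20, and hormone-dependent FOXA targets near 5 of 20 (25%) with a ratio of 8.29. ESR1, the oestrogen receptor, had 0 and 7, and GREB1 0 and 6. AP-1 and TEAD pathway genes had one near 8 of 24 (33.3%) and ribosomal protein genes near 9 of 28 (32.1%). The ratios of the short lists rest on totals of 5 to 12 FOXA2-side regions each.

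Regions within 1 kb of a start site numbered 41 on the FOXA2 side, 357 on the SOX2 side and 2 among the shared. Of the listed genes, WWTR1, the YAP partner TAZ, was the single one with a FOXA2-side region there, 987 bp after the start site at chr3:149702070-149702501, with a -log10 p of 5.05 and 16.6. A SOX2-side region lay there for 11 listed genes. Of the 186 listed genes with a start site these are 0.538% and 5.91%, beside 0.253% and 2.22% of all 15812 genes. A shared region lay there for 0.0126% of all genes and for no listed gene. The strongest SOX2-side entry at a listed start site was at CDH10, a neural cadherin, with a -log10 p of 9. FABP7, a fatty acid binding protein of radial glia, had one 532 bp before its start site (-log10 p of 3.88), and NKX2-2, a neural and pancreatic homeobox gene, one 63 bp after it (3.03). ALPL, the alkaline phosphatase of bone (3.54), FOXC1 (3.82), TEAD2 (3.56), AGR2 (3.07), PDZK1 (2.68), ANKRD1 (2.55), PTH1R (2.39) and FOXD1 (2.33) made up the rest. All but the CDH10 entry lay below the median -log10 p of 4.66 of SOX2-side regions.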

How the data were processed

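The 9 deposited lists of ATAC-seq peaks hold a -log10 p and a score for each peak, made by the authors. The 6 deposited lists of the FOXA2 set also hold -log10 q and fold enrichment, a ratio over the background of the library. The submitters' processing notes name Bowtie2 2.4.4, SAMtools 0.1.18, deepTools 2.4.1, FastQC 0.10.1, Trim Galore and MACS2, and build hg38. Per the file layouts, the FOXA2 set has 1 MACS2 list per library, while each list of the SOX2 set came from an IDR run on a pair of inputs, which are taken to be the replicates of the group. There the deposited -log10 p is the lower of the 2 inputs' values, and the score restates the IDR. Thresholds differed between lists. Duplicate handling and controls are not given in the sources used here. All entries on chromosomes 1 to 22 and X were used. Coordinates are 1-based on hg38.

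Lists were merged, regions classed and distances computed with Python 3.11.15, numpy 2.4.6 and pandas 2.3.3, and tested on simulated lists. No genome of this build was used. Start sites came from the RefSeq promoter table (GRCh38.p14), which covers 15812 of 19821 protein-coding genes and none on chromosome 8, so distances to start sites leave that chromosome out. Gene bodies and the assignment of regions to genes used all 19821. This departs from the plan, which assigned regions by nearest start site: 6 of 12 FOXA2-excess and 9 of 12 SOX2-excess genes are also named that way. Named genes were the 12 with the largest excess on each side, the 6 with most shared regions, and members of 13 lists with 3 or more regions of a side or one at the promoter. Of 287 listed genes, 285 were matched. A few genes that the rule names are not reported here. The members and lists were chosen with earlier results of these data known. With 1 SOX2 list there is no replicate test between the sides, so shares carry 95% Wilson intervals and the spread of the FOXA2 libraries taken one at a time.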

Additional observations from a re-analysis of the deposited data

How the results depend on the processing

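No paired analysis was possible because SOX2 has a single list and its replicates none of their own. Windows of 100 bp around summits were not run, since no genome was used. The difference in gene bodies kept its sign in 17 settings. Depth is unknown, so what it limits cannot be stated. The causes of the changes below were not tested.

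With the SOX2 lists at a global IDR of at most 0.05, SOX2-side regions numbered 24169, and the differences were -3.94 points over 50 kb, -0.0836 within 1 kb, 1.57 near the gene-free stretches (SOX2 minus FOXA2) and 80.5 with the fusion (SOX2 minus FOXA2). At equal numbers of entries there were 16297 SOX2-side and 492 shared regions, with -4.29, -0.0372, 1.45 and 86.9 points in the same order. A common -log10 p threshold of 5.22 left 8964 FOXA2-side, 29708 SOX2-side and 614 shared regions, with -0.147 points within 1 kb, 2.94 in gene bodies, 1.76 near the stretches and 84.9 with the fusion. Entries that cover 50% of a region gave 903 shared regions, -0.442 points within 1 kb and 66.9 with the fusion. Windows around summits turned the difference within 1 kb to 0.0260 points.

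Leaving out 1 library at a time gave 14683 to 99403 FOXA2-side, 62176 to 67925 SOX2-side and 1982 to 7776 shared regions. The highest FOXA2-side and shared counts came without FOXA2 replicate 2. The differences ranged from -3.10 to -0.879 points over 50 kb, -0.313 to -0.0725 within 1 kb, 2.51 to 4.99 in gene bodies, 1.32 to 3.70 near the stretches, 10.1 to 59.0 with the CTD deletion (FOXA2 minus SOX2) and 67.0 to 69.9 with the fusion. Replicates were also paired by number, with the SOX2-set wild type kept, though the labels name no batch. The peak names of FOXA2 replicate 2 and wild type replicate 2 carry a p threshold. With that pair the differences were -3.10 points over 50 kb, -0.0721 within 1 kb, 1.34 near the stretches and 44.7 with the CTD deletion. With FOXA2 replicate 1 and wild type replicate 1 there were 101902 FOXA2-side and 8716 shared regions. The differences were then -0.134 points within 1 kb, 2.51 in gene bodies, 2.29 near the stretches, 11.5 with the CTD deletion and 69.6 with the fusion.

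With the wild types of the FOXA2 set only, 9647 regions were shared, and the differences were 1.27 points over 50 kb, -0.964 within 1 kb, 2.76 near the stretches and 69.7 with the fusion. With the SOX2-set wild type only there were 2984 shared regions, 1.38 points near the stretches and 67.0 with the fusion. All annotated genes gave 0.0526 points over 50 kb and -0.653 within 1 kb. The fusion list at an IDR of at most 0.05 gave 37.6 points.

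Alternatives chosen after seeing the data moved the differences too. Without the gene-free stretches they were -0.231 points over 50 kb and 69.7 with the fusion, and either end of every protein-coding gene gave -0.115 within 1 kb. With the SOX2-side regions limited to the strongest 14665 they were -4.41 over 50 kb, -0.0384 within 1 kb, 1.76 near the stretches and 92.5 with the fusion. Among named genes, FOXA2-side minus SOX2-side counts changed sign for RGS17 (-1 at 50% cover). They also did so for ZNF337 (6 with IDR-limited SOX2 lists, 3 at equal numbers). LOC124903767 went from -123 to 53 on leaving out 1 library, and to 55 with FOXA2 replicate 1 and wild type replicate 1. For LOC124901649 these values were -111 to 8, and 9.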

Other observations

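Regions found in a single full-length FOXA2 library fall outside the 3 classes. They numbered 90182 without SOX2 and 6511 with it, among regions with no entry labelled wild type. The former were in a protein-coding gene in 43.0%, over 50 kb from a start site in 68.9% and near the gene-free stretches in 5.67%, and the CTD deletion lists had an entry in 5.81% and 12% of them. Those with SOX2 had an entry in 19.4% and 34.0% with the CTD deletion and in 76.3% with the fusion, which lies beside the 74.0% of SOX2-side regions.

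The 460 regions with an entry in both wild types of the FOXA2 set and none in that of the SOX2 set lay near the gene-free stretches in 85.9% (82.4 to 88.8). The 83972 regions of the opposite kind did so in 3.42% (3.30 to 3.55). Summits of the FOXA2 libraries stood a median of 142 bp apart in FOXA2-side regions and 152 bp in the standing open regions, whereas FOXA2 replicate 2 and SOX2 stood 71 bp apart in the latter.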
